A study of Mus musculus with 18 samples.

Results

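This section describes 10 genes of fast skeletal muscle fibres in RNA from mouse bone marrow preparations: Atp2a1, Pvalb, Actn3, Acta1, Ckm, Myh1, Myh4, Mylpf, Tnnt3 and Tnnc2. The genes were listed by name, as genes that muscle tissue left on the bones would bring into a preparation. The list was made with earlier results of these data known, and all 10 were measured among 19505 genes. Each had 1 probe set on the array. The preparations came from femurs and tibias and are labelled bone marrow mesenchymal cells (BM-MSCs), the marrow cells able to give rise to bone and fat. Beads removed cells carrying the blood-cell antigens CD45, Ter119, CD11b, CD11c, CD3, Gr1 and B220, and flow cytometry characterised the rest as negative for CD45 and positive for CD29 and CD44. RNA of 18 mice was hybridised, 1 array per mouse.

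The 4 groups were NeuT mice of 24 weeks (4 mice, labelled as late breast tumorigenesis), BALB/c controls of 24 weeks (4 mice), NeuT mice of 12 weeks (5 mice, labelled as early breast tumorigenesis) and BALB/c controls of 12 weeks (5 mice). In NeuT mice a mouse mammary tumour virus promoter drives an activated rat Erbb2 (neu) oncogene, and mammary tumours follow. Both NeuT groups are labelled tumour-bearing, and what the transgene does and what the tumours do cannot be told apart. The mice of different ages carry separate ranges of ID numbers and the labels give no processing batch, so age and any batch of processing cannot be told apart. Because RNA of many cells was pooled on each array, fewer cells of a type and less RNA per cell cannot be told apart either.

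Fast muscle fibres contract when calcium leaves the sarcoplasmic reticulum and binds troponin C on the thin filament, which frees actin for the myosin heads. A calcium pump then returns the calcium to the reticulum, the soluble protein parvalbumin buffers it meanwhile, and creatine kinase regenerates the ATP used. In intact muscle these genes are strongly expressed, and none of them is a customary marker of marrow stromal cells. Muscle attached to the long bones is one tissue that can enter a marrow preparation.

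The signals of the muscle genes lay low on the array. Values are deposited log2 signals after robust multi-array averaging (RMA), and 5222 negative control probe sets had a median of 7.35 with a 95th percentile of 10.5. Tnnt3, the fast troponin T that ties the troponin complex to tropomyosin, exceeded the array's own control median in 1 of 18 arrays. Ckm, the muscle creatine kinase, exceeded it in 8 and Myh4, the fastest myosin heavy chain of mice, in 14. The other 7 genes exceeded it in 18 of 18 arrays. Atp2a1, the calcium pump of fast fibres, was the only member to pass the 95th percentile of the controls, in 4 arrays. Control signals depended strongly on base content: background probe sets averaged 3.77 with 3 G or C bases and 9.97 with 25. The control levels are therefore a guide to low signal and not a detection limit for a given gene, and different probe sets' signals cannot be ranked against each other. With Ckm and Tnnt3 at or under the control median, the 10 genes are called fast muscle genes here and not a measure of muscle tissue.

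The arrays had similar medians over all genes, from 8.43 to 8.56, and pairs of arrays had correlations of 0.978 to 0.997 (across genes, so not over independent values). Of the BALB/c 24-week arrays 2 stood apart. Replicate 1 had a highest signal of 13.9, against 14.5 to 14.6 elsewhere, and replicate 3 had the lowest control median, 7.13, and the highest GC-matched background, 6.65. That array's median correlation with the others was 0.988, which with 0.991 for NeuT 24-week replicate 1 and 0.987 for NeuT 12-week replicate 4 made up the 3 lowest values. Members, genes of the skeletal and cardiac muscle lists and the erythroid gene Rhag are given below with and without these 3 arrays where they passed the test. Calls in the remaining lists are given for the fit of all arrays only. Lists of marrow stromal genes averaged 8.21 to 8.49 per array, neutrophil genes 11.3 to 12.5 and erythroid genes 10.9 to 12.1, so blood-cell transcripts gave signal in every preparation although Ter119, an erythroid antigen, was among those depleted.

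To show what lies upstream of the genes that the results turn on, the 250 bases before the start of transcription are given for the 4 genes that were lower at 24 weeks (Atp2a1, Pvalb, Mylpf and Myh4) and for Acta1 as an example of a gene that did not pass the test. Sequences are RefSeq's for GRCm38.p6, read 5′ to 3′ on the strand of the gene. Capitals mark matches to an E-box (CANNTG, bound by myogenic factors such as MyoD), a CArG box (bound by serum response factor) or TATAAA, on either strand.
Atp2a1, chr7:126463074-126463323 (minus strand): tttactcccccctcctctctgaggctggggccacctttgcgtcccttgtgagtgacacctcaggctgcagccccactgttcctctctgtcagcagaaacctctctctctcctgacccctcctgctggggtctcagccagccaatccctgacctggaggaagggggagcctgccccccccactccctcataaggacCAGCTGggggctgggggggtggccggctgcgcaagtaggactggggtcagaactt
Pvalb, chr15:78206401-78206650 (minus strand): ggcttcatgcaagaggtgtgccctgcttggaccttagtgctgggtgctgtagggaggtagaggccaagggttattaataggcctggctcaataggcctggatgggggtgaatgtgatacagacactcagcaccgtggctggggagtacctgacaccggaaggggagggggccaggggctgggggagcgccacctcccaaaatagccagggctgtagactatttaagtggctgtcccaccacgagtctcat
Mylpf, chr7:127211358-127211607 (plus strand): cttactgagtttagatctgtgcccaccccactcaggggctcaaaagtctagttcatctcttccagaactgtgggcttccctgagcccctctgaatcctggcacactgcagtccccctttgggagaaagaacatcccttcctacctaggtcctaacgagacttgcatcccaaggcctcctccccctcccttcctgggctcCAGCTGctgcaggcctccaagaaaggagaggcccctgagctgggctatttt
Myh4, chr11:67237562-67237811 (plus strand): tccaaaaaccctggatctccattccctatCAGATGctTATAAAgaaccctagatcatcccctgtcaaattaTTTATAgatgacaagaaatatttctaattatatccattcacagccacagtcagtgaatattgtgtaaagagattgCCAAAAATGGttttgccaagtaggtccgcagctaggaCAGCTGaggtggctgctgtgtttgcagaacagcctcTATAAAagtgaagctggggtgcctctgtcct
Acta1, chr8:123894776-123895025 (minus strand): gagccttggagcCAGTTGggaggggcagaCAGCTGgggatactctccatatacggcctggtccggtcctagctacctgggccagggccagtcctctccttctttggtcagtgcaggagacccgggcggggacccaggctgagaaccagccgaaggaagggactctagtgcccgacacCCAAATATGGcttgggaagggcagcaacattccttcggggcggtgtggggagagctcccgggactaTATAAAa
Of the 8 members with a promoter in the RefSeq table used, 6 held an E-box in the first listed promoter, as did 66.2% of 32851 mouse promoters of the same length. A CArG box stood in 2 of 8, Acta1 and Myh4, and in 1.47% of all promoters. TATAAA stood in 3 of 8 and in 12.4% of all. The MEF2 motif CTANNNNTAG stood in 0 of 8 (3.2% of all) and AGATAA, a motif of GATA factors, in 0 of 8 (9.99% of all). Some of these motifs can overlap in a sequence, and a match describes letters only. Actn3 and Tnnt3 are the 2 members without a sequence here.

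The first comparison asked whether preparations from NeuT mice differed from BALB/c preparations in these genes at either age. None of the 10 passed the test at 24 or at 12 weeks. The test was limma's moderated test over 19505 genes with Benjamini-Hochberg adjustment and a threshold of 0.05. Over all genes, 1.4% passed at 24 weeks and 3.84% at 12 weeks. Without the 3 least correlated arrays 0.0769% passed at 24 weeks and 4.48% at 12 weeks. Fitting only the 24-week groups left 1 gene past the test, so the count of 0 members at that age says little. The median log2 difference over the members, NeuT minus BALB/c, was -0.012 at 24 weeks, where all genes had a median of -0.00014, and -0.014 at 12 weeks, where all genes had a median of -0.025. Without adjustment, 0 members had a p under 0.05 at 24 weeks and 2 at 12 weeks. The share of all genes under that unadjusted threshold was not computed for any comparison, so such counts are a description only.

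**Figure D1:**
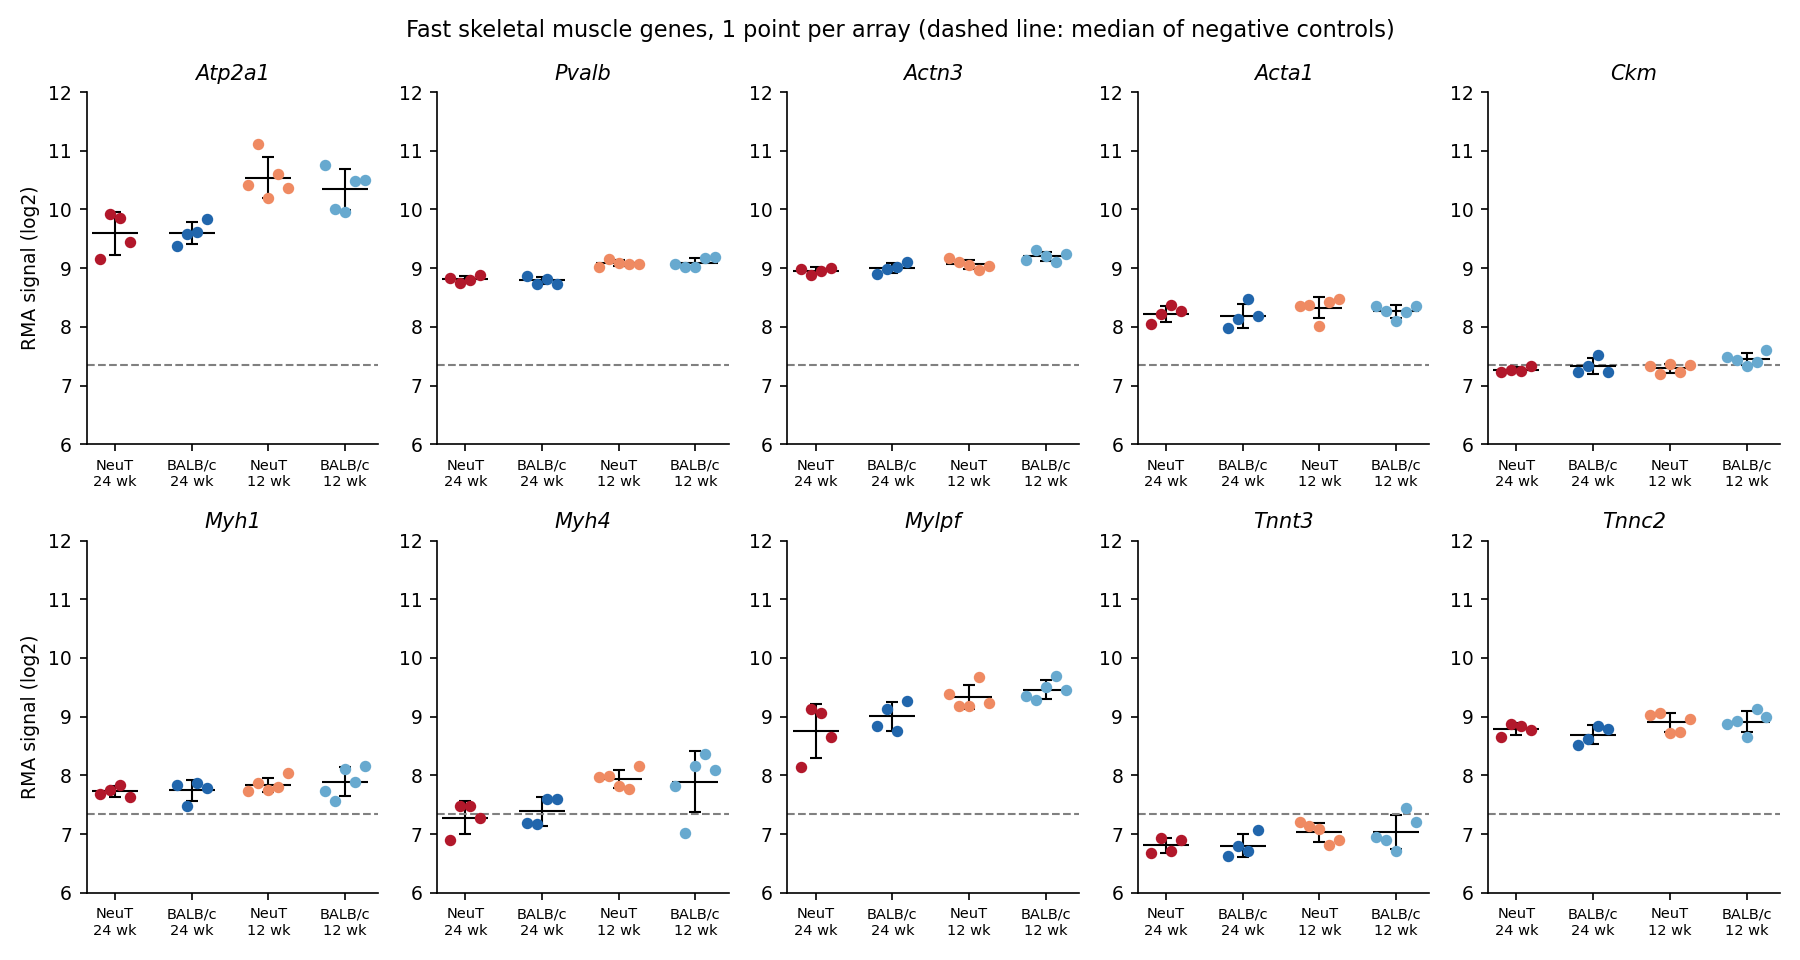
RMA log2 signal (vertical axis) of the 10 fast muscle genes in each of the 18 arrays, by group. Bars give the group mean and SD and the dashed line is the median of negative controls, 7.35. NeuT and BALB/c points overlap at each age, and the 24-week points of Atp2a1 and Pvalb lie under all 12-week points.

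The 2 genes with an unadjusted p under 0.05 at 12 weeks were Actn3 and Ckm. Actn3, an alpha-actinin that anchors thin filaments at the Z-disc of fast fibres, read 9.06 ± 0.075 in NeuT and 9.20 ± 0.077 in BALB/c mice (SD, n = 5 each), a log2 difference of -0.14 ± 0.064 (SE, limma adjusted p = 0.230). Ckm read 7.29 ± 0.076 in NeuT and 7.45 ± 0.10 in BALB/c mice (SD, n = 5 each), a difference of -0.16 ± 0.071 (SE, limma adjusted p = 0.196). Both sets of arrays overlapped between the models. At 24 weeks the smallest adjusted p was that of Mylpf, 0.540.

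Mylpf, the regulatory light chain of fast myosin, had signals of 8.14, 9.14, 9.07 and 8.65 in the 4 NeuT arrays at 24 weeks, against 8.84, 9.13, 8.76 and 9.27 in the 4 BALB/c arrays. NeuT replicate 1 lay under all others of its age, and the groups overlapped. The log2 difference was -0.25 ± 0.17 (SE), with a 95% interval from -0.59 to 0.090. The intervals of the other members at 24 weeks ran from a low of -0.51 (Myh4) to a high of 0.38 (Atp2a1). A signal change of 1 log2 unit thus lay outside every member's interval at that age. Signals of Ckm, Tnnt3 and Myh4 lay near the control median, so how much their transcripts changed cannot be read from the intervals. At 12 weeks the intervals ran from -0.44 for Mylpf to 0.55 for Atp2a1.

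The difference between the 24-week and the 12-week effect of NeuT was tested as an interaction. It passed for 0 of 10 members, with adjusted p from 0.920 to 0.995, and for 0.0103% of all genes. The number of members with an unadjusted p under 0.05 was 0.

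The second comparison asked how the genes differed between 24-week and 12-week mice within each model. Over all genes, 51.1% had a difference (24 minus 12 weeks) below 0 in NeuT and 55.9% in BALB/c mice. All 10 members had lower means at 24 weeks in NeuT and also in BALB/c mice. Most of these differences were too small or too variable to pass: 0 of 10 members passed in NeuT mice, where 0.0359% of all genes passed, and 1 of 10, Pvalb, was lower in BALB/c mice, where 0.246% of all genes passed as lower. Without adjustment 4 members in NeuT and 6 in BALB/c mice had a p under 0.05, with no share of all genes computed at that threshold. As the members were chosen with earlier results known, the counts of members here are a description only. The median log2 difference over the members, 24 minus 12 weeks, was -0.17 in NeuT and -0.23 in BALB/c mice, and over all genes it was -0.0031 in NeuT and -0.018 in BALB/c mice.

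A comparison averaged over both models was added after these values were seen. By it 4 of 10 members were lower at 24 weeks, Atp2a1, Pvalb, Mylpf and Myh4, and 1.82% of all genes passed as lower. The other 6 had log2 differences from -0.071 to -0.23 and did not pass. The members were chosen with earlier results of these data known, so their share set against that of all genes is no unbiased comparison. Since the contrast was also chosen with the results in view and age and batch cannot be told apart, the 4 are a description of these 2 sets of mice.

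**Figure D2:**
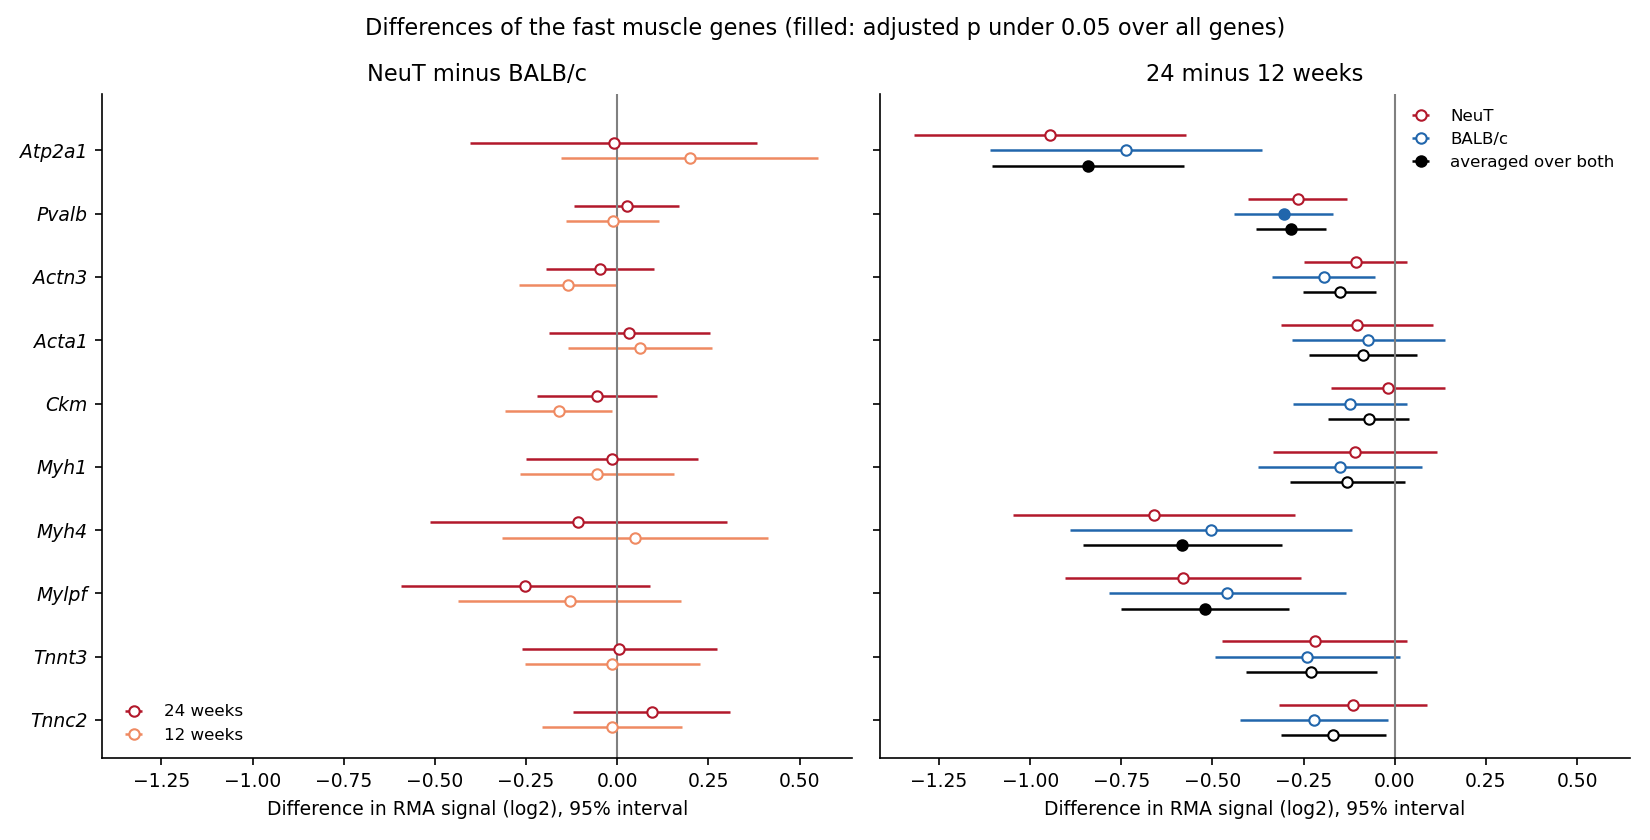
Log2 differences (horizontal axis, with 95% intervals) of the 10 fast muscle genes for NeuT minus BALB/c on the left and 24 minus 12 weeks on the right. Filled points passed an adjusted p of 0.05 over all genes: 4 members for the averaged age contrast, Pvalb in BALB/c mice, and 0 on the left.

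The calcium pump and the calcium buffer differed between the ages without overlap. Atp2a1 (probe set TC0700004279.mm.2) gave 9.15, 9.92, 9.86 and 9.44 in NeuT mice at 24 weeks, against 10.42, 11.11, 10.20, 10.60 and 10.37 in NeuT mice at 12 weeks. In BALB/c mice it gave 9.37, 9.59, 9.62 and 9.84 at 24 weeks, against 10.76, 10.002, 9.95, 10.49 and 10.50 at 12 weeks. In both models every 24-week array lay under every 12-week array. The log2 difference was -0.95 ± 0.18 (SE) in NeuT mice, limma adjusted p = 0.0509, and -0.74 ± 0.18 in BALB/c mice, adjusted p = 0.0558. Averaged over both it was -0.84 ± 0.13, a fold of 0.558 with limma adjusted p = 0.00177, and it was -0.76 (adjusted p = 0.00959) without the 3 least correlated arrays.

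Pvalb, which encodes parvalbumin, gave 8.83, 8.75, 8.80 and 8.88 in NeuT mice at 24 weeks, against 9.02, 9.16, 9.09, 9.07 and 9.07 in NeuT mice at 12 weeks. In BALB/c mice it gave 8.86, 8.74, 8.82 and 8.74 at 24 weeks, against 9.08, 9.03, 9.01, 9.17 and 9.18 at 12 weeks. The ages again did not overlap in either model, and the spread within a group was small. The log2 difference was -0.27 ± 0.066 (SE) in NeuT mice, limma adjusted p = 0.103, and -0.30 ± 0.066 in BALB/c mice, adjusted p = 0.0371. Averaged over both it was -0.29 ± 0.046, a fold of 0.820 with limma adjusted p = 0.00295, and -0.29 (adjusted p = 0.00729) without the 3 least correlated arrays. In BALB/c mice alone the difference was -0.32 (limma adjusted p = 0.0157) without the 3 least correlated arrays. The call in BALB/c mice alone ended in 7 of 9 fits that left out 1 array, with adjusted p up to 0.108 without BALB/c 24-week replicate 2. Atp2a1 in NeuT mice passed in 4 of 9 such fits.

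Atp2a1 and Pvalb were the 2 members whose 24-week arrays all lay under the 12-week arrays of both models, which 0.149% of all genes did. Counted within a model, 4 of 10 members did not overlap in NeuT mice (Atp2a1, Pvalb, Myh4 and Mylpf), as did 2.12% of all genes in that direction. In BALB/c mice it was also 4 of 10 (Atp2a1, Pvalb, Actn3 and Mylpf), as did 3.57% of all genes. As the members were chosen with earlier results known, these shares are a description only.

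Among the thick-filament genes, Mylpf and the heavy chain Myh4 passed the averaged contrast as lower and the heavy chain Myh1 did not pass. Myh4 and Myh1 were not tested against each other. Mylpf gave 9.38, 9.19, 9.17, 9.67 and 9.24 in NeuT mice at 12 weeks and 9.36, 9.29, 9.51, 9.70 and 9.45 in BALB/c mice at 12 weeks; its 24-week values are given above. The log2 difference between 24 and 12 weeks was -0.58 ± 0.16 (SE) in NeuT mice, limma adjusted p = 0.127, and -0.46 ± 0.16 in BALB/c mice, adjusted p = 0.148. Averaged over both it was -0.52 ± 0.11, limma adjusted p = 0.0115. It was -0.34 (adjusted p = 0.0278) without the 3 least correlated arrays, over 1.5 times nearer 0, and -0.42 without NeuT 24-week replicate 1 alone, the array with the lowest Mylpf signal.

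Myh4, the heavy chain of the fastest fibre type, gave 6.89, 7.47, 7.48 and 7.27 in NeuT mice at 24 weeks, against 7.98, 7.99, 7.81, 7.76 and 8.15 in NeuT mice at 12 weeks. In BALB/c mice it gave 7.18, 7.16, 7.60 and 7.60 at 24 weeks, against 7.82, 7.03, 8.15, 8.37 and 8.08 at 12 weeks. The ages did not overlap in NeuT mice and overlapped in BALB/c mice through 12-week replicate 2. Averaged over both models the log2 difference was -0.58 ± 0.13 (SE), limma adjusted p = 0.0161. It was -0.58 (adjusted p = 0.0283) without the 3 least correlated arrays, and it passed with adjusted p = 0.04997 without NeuT 24-week replicate 1. Several of these values lie near the control median, so how much the transcript itself changed cannot be read from them. Myh1, the heavy chain of another fast fibre type, gave 7.62 to 7.84 in NeuT and 7.49 to 7.86 in BALB/c mice at 24 weeks, against 7.73 to 8.04 in NeuT and 7.56 to 8.17 in BALB/c mice at 12 weeks, with an averaged difference of -0.13 (limma adjusted p = 0.362).

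The thin-filament, troponin and energy genes did not pass. Actn3 gave 8.88 to 9.01 in NeuT and 8.91 to 9.10 in BALB/c mice at 24 weeks, against 8.97 to 9.17 in NeuT and 9.11 to 9.30 in BALB/c mice at 12 weeks (averaged log2 difference -0.15, limma adjusted p = 0.0749). It did pass without BALB/c 24-week replicate 3, with adjusted p = 0.0496. Acta1, the skeletal alpha-actin that forms the thin filament, gave 8.04 to 8.37 in NeuT and 7.98 to 8.47 in BALB/c mice at 24 weeks, against 8.02 to 8.47 in NeuT and 8.10 to 8.36 in BALB/c mice at 12 weeks. Its ages overlapped fully, with an averaged difference of -0.088 (limma adjusted p = 0.530).

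Tnnc2, the calcium-binding troponin of fast fibres, gave 8.65 to 8.88 in NeuT and 8.51 to 8.84 in BALB/c mice at 24 weeks, against 8.71 to 9.07 in NeuT and 8.66 to 9.13 in BALB/c mice at 12 weeks (averaged log2 difference -0.17, limma adjusted p = 0.168). Tnnt3 gave 6.68 to 6.93 in NeuT and 6.62 to 7.07 in BALB/c mice at 24 weeks, against 6.81 to 7.20 in NeuT and 6.71 to 7.45 in BALB/c mice at 12 weeks. The averaged difference was -0.23 (limma adjusted p = 0.132), between signals that lay mostly under the controls. Ckm gave 7.23 to 7.34 in NeuT and 7.23 to 7.52 in BALB/c mice at 24 weeks, against 7.19 to 7.36 in NeuT and 7.33 to 7.60 in BALB/c mice at 12 weeks, an averaged difference of -0.071 (limma adjusted p = 0.487).

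As a summary over the set, the mean signal of the 10 genes was computed for each array, and is a description with no test. It was 8.22 ± 0.14 in NeuT and 8.25 ± 0.11 in BALB/c mice at 24 weeks (SD, n = 4 each), and 8.53 ± 0.072 in NeuT and 8.56 ± 0.14 in BALB/c mice at 12 weeks (SD, n = 5 each). The mouse models differed by -0.033 at 24 weeks and -0.021 at 12 weeks, less than the spread within groups. The ages differed by -0.31 averaged over both models. The GC-matched background averaged 6.38 in NeuT and 6.45 in BALB/c mice at 24 weeks, against 6.29 in NeuT and 6.38 in BALB/c mice at 12 weeks. Without replicate 3 the BALB/c 24-week mean was 6.39. Control medians were 7.34 in NeuT and 7.29 in BALB/c mice at 24 weeks, against 7.38 in NeuT and 7.35 in BALB/c mice at 12 weeks.

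Single arrays were then read for a preparation in which the muscle genes were high together. The largest deviation of an array's mean above its group was 0.14, in BALB/c 12-week replicate 4, which was highest of its group for 4 of 10 members. BALB/c 24-week replicate 3 was highest of its group for 5 members, with a deviation of 0.069. That array also had the highest median over all genes, 8.56, and the highest GC-matched background, 6.65. Its tendon list mean was 7.77, against 7.25 to 7.34 in the other arrays of its group, while its marrow stromal list mean, 8.28, lay within their range. What this meant for the members was not tested. The largest deviation below was -0.19, in NeuT 24-week replicate 1, which was lowest of its group for 7 of 10 members. BALB/c 12-week replicate 2 followed with -0.18. No array had all 10 members above its group mean, and the largest number was 9, in BALB/c 12-week replicate 5.

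The members moved together across arrays to a modest degree. Over the 18 arrays all 45 pairs had a Pearson r above 0, with a median of 0.449, where members paired with all other genes had a median of 0.056. Once the group means were removed 9 of 45 pairs lay below 0, the lowest Pvalb with Mylpf at -0.31. The median was then 0.218 over member pairs and 0.039 over members paired with all other genes. Atp2a1 and Pvalb had the highest r, 0.791, which was 0.193 with group means removed. The troponins Tnnt3 and Tnnc2 had 0.777, and 0.709 with group means removed, and the heavy chains Myh1 and Myh4 had 0.716 and 0.694. These values describe arrays that share their normalisation and age structure and are given without a p.

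Other muscle genes were followed in 6 further lists, holding 74 measured genes. For NeuT against BALB/c, 0 were higher and 1 lower at 24 weeks, where 1.4% of all genes passed, and 0 higher and 2 lower at 12 weeks, where 3.84% passed. These counts are no larger a share than that over all genes. Most had a difference below 0: 56 of 74 at 24 weeks, where 50.1% of all genes lay below 0, and 60 of 74 at 12 weeks, where 57.4% did. Their medians were -0.074 at 24 weeks and -0.096 at 12 weeks. Lists of blood-cell markers had medians farther from 0 in the same comparison, but only neutrophil genes passed the test at both ages. Erythroid genes lay below 0 in 7 of 7 at both ages (medians -0.28 at 24 weeks and -0.23 at 12 weeks, with 0 past the test). B-cell genes lay below 0 in 9 of 9 at both ages (medians -0.84 at 24 weeks and -0.53 at 12 weeks, with 1 lower at 24 weeks and 0 at 12 weeks). Of 13 neutrophil genes 5 were higher in NeuT mice at each age (medians 0.59 at 24 weeks and 0.47 at 12 weeks). The bead depletion was aimed at all 3 cell types, and their part in the muscle lists was not tested. The genes past the test at 12 weeks were Tnnt2, the cardiac troponin T (-0.39 ± 0.091, SE, limma adjusted p = 0.0201), and Myog, the myogenic factor myogenin (-0.29 ± 0.073, limma adjusted p = 0.0299). Without the 3 least correlated arrays Tnnt2 had adjusted p = 0.0125 and Myog 0.0429, but with 1 array left out in turn Tnnt2 passed in 7 and Myog in 4 of 10 fits. At 24 weeks it was Mybpc2, the fast myosin-binding protein C, which read 8.10 in NeuT and 8.61 in BALB/c mice (-0.51 ± 0.13, limma adjusted p = 0.0483). Without the 3 arrays its difference was -0.31 with adjusted p = 0.435, and it passed in 2 of 8 fits that left out 1 array.

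By list, with the 24-week median before the 12-week one, the 18 other fast and pan-fibre contractile genes had a median log2 difference of -0.047 and -0.098, with Mybpc2 as the 1 gene past the test. The 11 calcium-handling genes had -0.092 and -0.082, and 0 passed: Jsrp1, a protein of the sarcoplasmic reticulum, had -0.25 at 12 weeks (limma adjusted p = 0.0669) and Stac3, needed for calcium release in muscle, had -0.19 (adjusted p = 0.112). The 14 energy genes had -0.076 and -0.096, and 0 passed: Pygm, muscle glycogen phosphorylase, had -0.20 at 12 weeks (limma adjusted p = 0.189) and Pgam2, muscle phosphoglycerate mutase, -0.17 (adjusted p = 0.204). The 10 slow-fibre genes had -0.10 and -0.12, and 0 passed: Tnni1, the slow troponin I, had -0.26 at 24 weeks (limma adjusted p = 0.217) and Myh7, the slow heavy chain, -0.22 at 12 weeks (adjusted p = 0.136). The 8 cardiac genes had -0.098 and -0.10, and the 13 developmental and myogenic genes -0.056 and -0.077.

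Between the ages, 0 of these 74 genes passed within either model, where 0.0359% of all genes passed in NeuT mice and 0.246% as lower in BALB/c mice. Averaged over both models 0 were higher and 4 lower at 24 weeks, where 1.82% of all genes passed as lower. The 4, named after their values were seen, were Casq1, a calcium-storing protein of the reticulum (-0.47, limma adjusted p = 0.0107), Pgam2 (-0.22, adjusted p = 0.0412), Myl2, the slow and ventricular light chain (-0.33, adjusted p = 0.0151), and Myh8, the perinatal heavy chain (-0.52, adjusted p = 0.0248). Without the 3 least correlated arrays Casq1 (adjusted p = 0.0269), Pgam2 (0.0123) and Myl2 (0.0283) passed and Myh8 (0.0541) did not. With 1 array left out in turn Casq1 and Myl2 passed in 18, Myh8 in 15 and Pgam2 in 3 of 18 fits. Casq1 and Myl2 exceeded the array's control median in 0 of 18 arrays and Myh8 in 10, so their changes are between low signals. Of the 74 genes, 56 had an averaged difference below 0, with a median of -0.092, where 54% of all genes lay below 0 with a median of -0.010.

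**Figure D3:**
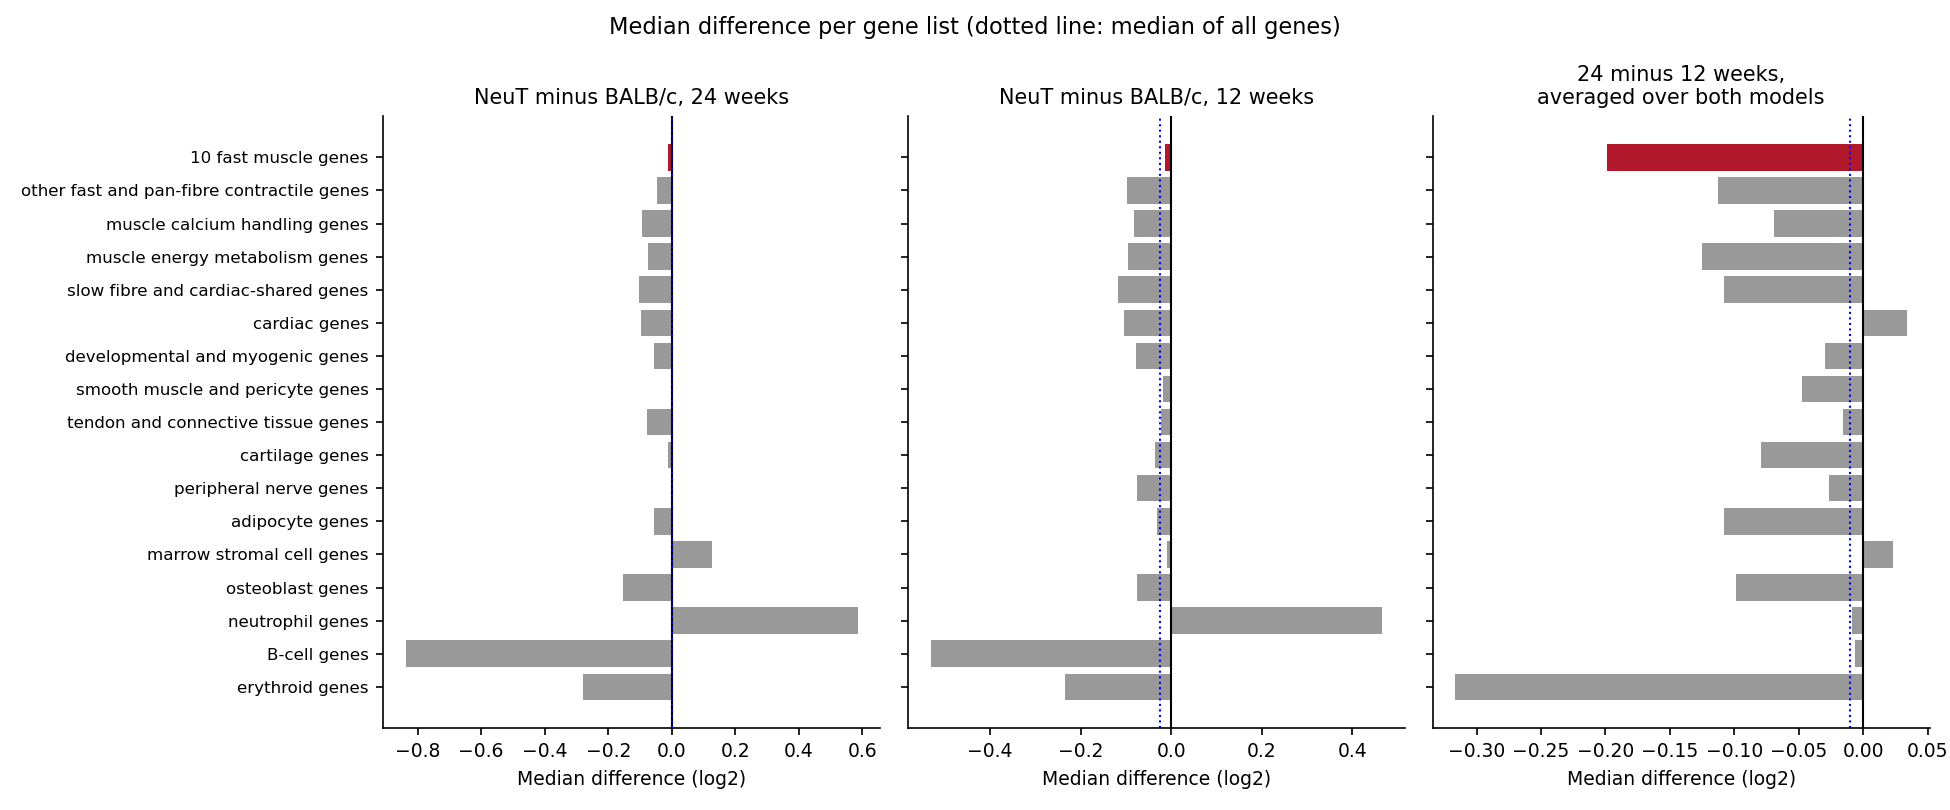
Median log2 difference (horizontal axis, scaled separately in each panel) of the 10 fast muscle genes and 16 other gene lists, with the median of all genes as a dotted line. The fast muscle genes lie near 0 for NeuT against BALB/c and at -0.20 for 24 against 12 weeks, where the erythroid list lies at -0.32.

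Among the lists of other cells and tissues, the erythroid genes had the lowest median between the ages. Averaged over both models, the remaining lists had medians from -0.11 (adipocyte genes) to 0.023 (marrow stromal genes), where all genes had -0.010. In the smooth muscle list Acta2 passed as lower (-0.27, limma adjusted p = 0.0346). For NeuT against BALB/c, 1 of 12 marrow stromal genes was higher at 24 weeks, where 1.4% of all genes passed. At 12 weeks 1 of 8 osteoblast and 1 of 5 peripheral nerve genes were lower, where 3.84% of all genes passed. Between the ages in BALB/c mice 1 of 12 marrow stromal genes was lower, where 0.246% of all genes passed as lower. All 7 erythroid genes analysed here had a negative averaged difference (24 minus 12 weeks), with a median of -0.32. Of them 1 passed the test, Rhag, part of the Rh complex of red cells (-0.44 ± 0.12, SE, limma adjusted p = 0.0479). Over all genes 1.82% passed as lower. Rhag had -0.39 (adjusted p = 0.0440) without the 3 least correlated arrays and passed in 5 of 18 fits that left out 1 array. The mean of the list ran from 10.9 to 11.9 in NeuT and 11.5 to 11.8 in BALB/c mice at 24 weeks, against 11.5 to 11.9 in NeuT and 11.9 to 12.1 in BALB/c mice at 12 weeks. Over the 18 arrays the erythroid mean and the muscle mean had a Pearson r of 0.73 and a Spearman rho of 0.69, with r = 0.56 without 2 extreme arrays and 0.63 with group means removed. The part of erythroid cells in the muscle-gene difference was not tested.

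The mean of the 18 other contractile genes followed the members to a similar degree, with r of 0.75 and rho of 0.74 over the 18 arrays, 0.67 without 2 extreme arrays and 0.63 with group means removed. Gene by gene, r with the member mean had a median of 0.43 over these 18 genes, of 0.70 over the 7 erythroid genes and of 0.074 over all other genes. The marrow stromal list had r of -0.0070 and rho of 0.024 over the 18 arrays, but 0.49 and 0.50 with group means removed. The tendon list had r of 0.15 and rho of 0.50, and 0.058 and -0.075 with group means removed. The smooth muscle list had r of 0.59 and rho of 0.60, and 0.47 and 0.45 with group means removed. The neutrophil list had r of -0.11 and rho of -0.0093, and -0.10 and -0.12 with group means removed. Between the ages 0 of the 13 neutrophil genes were higher and 0 lower, with a median of -0.0087.

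**Figure D4:**
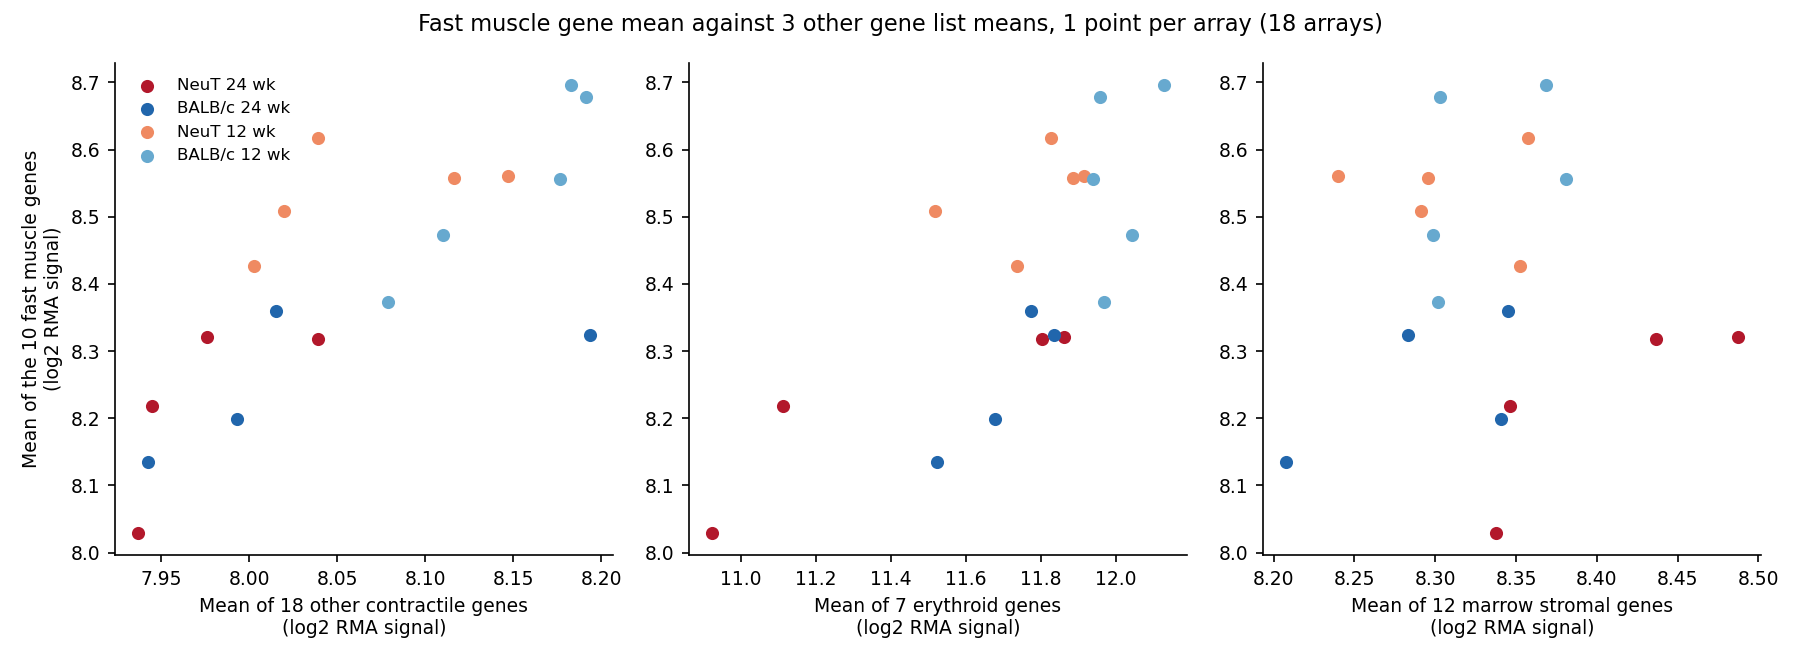
Mean log2 signal of the 10 fast muscle genes (vertical axis) against the means of 18 other contractile, 7 erythroid and 12 marrow stromal genes (horizontal axes) in 18 arrays, coloured by group. Over all arrays r is 0.75 in the first panel, 0.73 in the second and -0.0070 in the third. With group means removed it is 0.63, 0.63 and 0.49, and NeuT 24-week replicate 1 has the lowest values on both axes of the first and second panels.

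The single genes most like the member mean were found among genes that are no members, as a description with no p. Genes with provisional names, or with names starting in Olfr or Vmn, were passed over. Over the 18 arrays they were Plpp1 (r = 0.891), Glrx5 (0.891), Mtfr1 (0.888), Tab3 (0.872), Wfdc16 (0.870), Ppp1r15a (0.869), Kel (0.868), Fam241a (0.866), Cd59a (0.864) and Hebp1 (0.863). None of the 10 was on a muscle list. Plpp1 gave mean signals of 10.6 in NeuT and 10.9 in BALB/c mice at 24 weeks, against 11.4 in NeuT and 11.5 in BALB/c mice at 12 weeks. With the group means removed they were Krt31 (0.857), Trim66 (0.818), Cpox (0.813), Rpe65 (0.8003), Rnf187 (0.791), B9d1 (0.787), Mettl27 (0.785), Ubqln1 (0.783), Epdr1 (0.782) and Rbm33 (0.782). Group means of Rpe65 (6.22 to 6.38) and Trim66 (7.02 to 7.21) lay under the control median of 7.35, so their likeness rests on low signals. The 2 sets of most similar genes shared 0 genes.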

How the data were processed

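RNA of 18 mice was measured on 1 array each. Per the submitters' processing notes, the authors' deposited log2 values were made with RMA and the Transcriptome Analysis Console; versions and genome build: not given in the sources used here. The table held 29129 probe sets, of which 19572 carried 1 gene symbol. For 55 genes with several, the probe set with the highest mean stood for the gene, giving 19505 genes. Dim genes stayed in, and no detection calls were used here. Precision is limited by the number of arrays.

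Each gene was fitted with limma 3.58.1 in R 4.3.3, with 1 mean per group (14 residual and 8.68 prior degrees of freedom), two-sided tests and Benjamini-Hochberg adjustment over all genes at 0.05. The script was tested on simulated data. Members, lists and naming rule were chosen with earlier results of these data known. The naming rule takes all members, and per muscle list up to 4 genes past the threshold for NeuT against BALB/c or else those with the smallest p. It also takes the 10 genes most correlated with the member mean, passing over provisional names and names starting in Olfr or Vmn. Smooth muscle, tendon, cartilage, nerve, fat, stromal, bone and blood lists were also set up. Replicates are different mice. Promoters were searched and figures drawn with Python 3.11.15 and matplotlib 3.10.9.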

Additional observations from a re-analysis of the deposited data

Results flagged for a closer look

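Acta1, the skeletal alpha-actin, gave 8.02 in NeuT 12-week replicate 3, against 8.36 to 8.47 in the other 4 arrays of that group. The gap to the nearest array was 0.754 of the group's whole range, which is over the 95% critical value of Dixon's test. It was 1 of 44 groups of values tested this way, and chance alone marks about 5% of them.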

How the results depend on the processing

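The count of fast muscle genes past the test for NeuT against BALB/c was 0 at both ages and for their difference under every alternative run. For 24 against 12 weeks in NeuT mice (0 genes) it was 1 with a filter on dim genes, which left out Ckm and Tnnt3. It was 2 with array weights and 0 to 2 when 1 array was left out. It stayed 0 without the 3 least correlated arrays and when only the NeuT groups were fitted, and in both fits 0 of all genes passed. Over all genes 7 passed in that comparison in the main fit, 13 with the filter and 72 with array weights. In BALB/c mice (1 gene) the count of fast muscle genes was 2 with a further quantile normalisation, 2 with the filter and 5 with array weights. It was 2 without the 3 least correlated arrays and 0 to 2 when 1 array was left out. Over all genes 113 passed in either direction in the main fit, 214 with the quantile normalisation and 220 with the filter. Array weights gave 2375 over all genes, and leaving out the 3 arrays gave 1277. Fitting only the 2 groups compared also gave 1 gene there, Atp2a1 (adjusted p = 0.0274) in place of Pvalb (adjusted p = 0.0708). For the average over both models (4 genes) the count of fast muscle genes was 7 with array weights and 4 to 5 when 1 array was left out. Over all genes 773 passed it in either direction in the main fit and 2893 with array weights. Beyond the filter's own construction, the cause was not tested. Atp2a1, Pvalb, Mylpf and Myh4 passed that contrast in all 27 alternatives run. Of 1288 values of single genes under alternatives, 0 called values changed direction, 8 lost and 24 gained a call, and 68 uncalled ones changed sign. Of the 74 genes of the other muscle lists, those lower for the averaged contrast numbered 4, and 6 without the 3 arrays. In the fit without them 5.47% of all genes passed that contrast in either direction. For NeuT against BALB/c at 24 weeks those lower numbered 1, and 0 without the 3 arrays, where 0.0769% of all genes passed. Between the ages in BALB/c mice 0 of the 74 were higher and 0 lower, and 1 was higher and 4 lower without the 3 arrays, where 6.55% of all genes passed. The average over both models and the fits without the 3 arrays were chosen after seeing the data. No paired analysis was possible because the labels give no replicate numbers shared between groups. Signals near the negative controls limit what Ckm, Tnnt3 and Myh4 can show.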
